A study of Mus musculus with 24 samples.

Results

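RNA was sequenced from the cortices of 6 *Cep135* mutant embryos, 3 taken on embryonic day E11.5 and 3 on E14.5, with 1 library per embryo. These 6 libraries were chosen by their deposited labels, as every *Cep135* mutant cortex library in a series of 24, and are compared here by age. All 6 embryos carried *Cep135* Δ8/Δ8, an 8 bp deletion in the second exon that was made with CRISPR in B6.CBA zygotes and kept on C57BL/6J, and the labels call them cep135 null or *Cep135* (-/-). The E11.5 mutants are called A, B and C, the E14.5 mutants 1, 2 and 6, and values are always given in that order. Cortices of *Cep135* +/+ embryos, D, E and F at E11.5 and 3, 4 and 5 at E14.5, served as the reference for the same interval, and the other 12 libraries, cultured neurospheres, were not used for these comparisons. The title of mutant A begins with TBI189, as does that of control D, and the titles of mutants B and C with TC48, as do those of controls E and F, while the descriptions of B and C begin with TL48. All E14.5 cortices of both genotypes have titles that begin with TBI180. What these prefixes stand for is not given in the sources used here, and age and whatever the prefixes mark cannot be told apart. The description of mutant 6's cortex names E11.5, whereas its title and source name give E14.5, and it was taken as E14.5. Its values correlated with those of mutants 1 and 2 at 0.966 and 0.965 and with those of the E11.5 mutants at 0.883 to 0.913 (Pearson's r across 13647 genes, which are not independent). By *Xist* and Y-linked transcripts, A, C, 1 and 2 were female and B and 6 male, so each age held 2 females and 1 male among the mutants. Of the controls, E was female and D, F, 3, 4 and 5 were male. Sex was thus not balanced between the ages in controls, nor between the genotypes.

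Between these ages the dorsal telencephalon passes from a sheet made mostly of dividing radial glia, the neural stem cells of the ventricular zone, to a layered wall in which intermediate progenitors and newborn neurons lie above them. Radial glia first divide to enlarge their own pool and then produce neurons, the deep-layer types before the upper-layer types, while interneurons born in the ventral telencephalon migrate in. CEP135 is a centriole protein of the cartwheel and microtubule wall, and mutations of its human gene cause primary microcephaly, a small brain that typically has near normal architecture. For *CEP135*, the authors cite severe microcephaly together with subcortical heterotopia, which is uncommon in other such patients. They add that the causal role of the gene there was not fully established. The comparison of the 6 libraries describes how the RNA of the cortex changed with age in the absence of this protein. In such tissue, fewer cells of a type and less RNA per cell cannot be told apart.

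Values are normalized read counts, the reads at the 3′ ends of a gene's transcripts divided by 1 size factor per library. The E11.5 mutants held 6378724 to 11642271 reads on genes and the E14.5 mutants 6490903 to 8797932. Pairs of libraries of the same age had an r of 0.965 to 0.980 across genes, and pairs of different age 0.864 to 0.913. With the E14.5 libraries, B had an r of 0.901 to 0.913, above A at 0.864 to 0.883 and C at 0.873 to 0.890. A gene was called when its adjusted p in limma was under 0.05. Fold changes are on the scale of log2(normalized read count + 1), E14.5 minus E11.5, with their standard error, for 3 libraries against 3. Nothing in the labels says more of the embryos than this prefix and a number, so the p-values measure the spread between these embryos.

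Some libraries held more transcripts of neighbouring tissues than others, and these differences run through several results below. The summed level of 12 pericyte and meningeal genes was 8502, 4109 and 7293 in A, B and C and 2180.4, 2862 and 2928 in 1, 2 and 6. Genes of the diencephalon, midbrain and hindbrain, led by *Tcf7l2*, summed to 1708 to 2569 at E11.5. At E14.5 they stood at 505 in mutant 1 and 432 in mutant 6 but at 2590.1 in mutant 2, where *Tcf7l2* alone had 2365 and *Shox2* 146. Among the mutants, transcripts of the liver were present in A and C, where *Alb* had 58.1 and 283, and *Alb* was at 0 in the other 4 mutants. Controls held liver transcripts too. Of 8 genes of the liver list tested there, which also holds *Ttr*, 5 were called higher at E14.5 and 0 lower, with a median log2 fold change of 3.49. Of all genes tested in controls 18.3% were higher. Choroid plexus genes, which include *Ttr* and *Otx2*, summed to 8029 and 6916 in mutants 1 and 2 but to 918 in mutant 6. The dorsal telencephalic markers *Emx2* and *Pax6* were present in all 6, at the levels given with the radial glia genes. Of 9 dorsal markers 6 were called higher at E14.5 and 1, *Emx2*, lower, against 18.4% and 20.9% of all genes. Their sum was 4588 to 5433 at E11.5 and 7080 to 9181 at E14.5, and in controls 5706 to 6604 and 9842 to 10534. Of the midbrain and hindbrain genes, *Hoxa2* and *En2* were at 0 in all 6, *En1* had 51.6, 75.8 and 54.8 at E11.5 and 0, 2.21 and 0 at E14.5, *Hoxb2* reached at most 3.13, and *Pax2* and *Pax5* were present at low levels, highest in B, where *Pax5* had 15.6. *Gfap*, the defining gene of mature astrocytes, was also at 0 in all 6. The part of these tissues in the results below was not tested beyond leaving out each library in turn and leaving out A and C together.

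**Figure D1:**
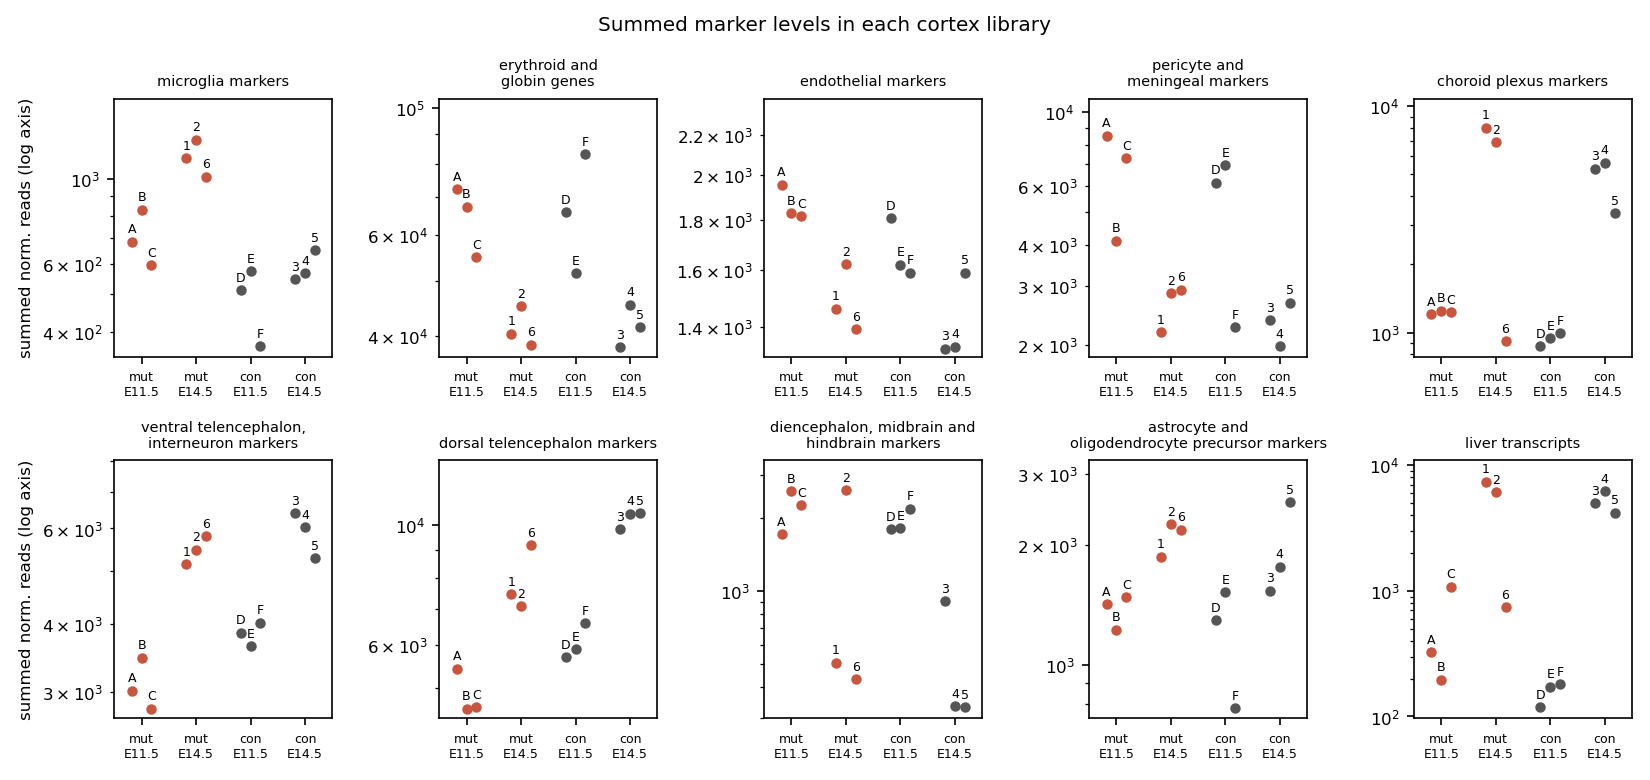
Summed normalized read counts of 10 marker lists in each cortex library (log axis; red, mutants; grey, controls; letters and numbers name the embryos). Pericyte and meningeal genes were highest in A and C among the mutants, diencephalon, midbrain and hindbrain genes in B and mutant 2, and choroid plexus genes in mutants 1 and 2.

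The targeted gene itself did not pass the test with all 6 libraries. *Cep135* (ENSMUSG00000036403, on the plus strand of chromosome 5 from 76588698 to 76646466 in GRCm38) had normalized read counts of 246, 336 and 329 at E11.5 and 224, 173 and 283 at E14.5 (log2 fold change -0.43 ± 0.19, adjusted p = 0.0936), and the groups overlapped. Without mutant 6 it passed as lower (log2 fold change -0.61, adjusted p = 0.0209 in limma). With all 6, a two-sided exact permutation test gave p = 0.2, where 3 against 3 cannot go below 0.1. In controls it had 293, 375 and 318 at E11.5 and 171, 176 and 271 at E14.5. Reads were taken at the 3′ end, away from the deletion in the second exon, so this level does not check the genotype.

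Of 13647 genes tested in the mutants, 2513 were called higher at E14.5 (18.4%) and 2849 lower (20.9%). With a change of at least 2-fold asked as well, 1372 were higher (10.1%) and 981 lower (7.19%). The groups did not overlap for 6919 genes (50.7%), and log2 fold changes over the whole table had a median of -0.07. These shares are the background for the counts of gene lists that follow. Where the mean was 100 or more and the ages did not overlap, the 10 largest increases were *Neurod6*, *Grm5*, *Sst*, *Grin2b*, *Camk2b*, *Ttr*, *Rlbp1*, *Neurod2*, *Hs3st4* and *Aldoc*. The 10 largest decreases were *Hbb-bh1*, *Six2*, *Fndc3c1*, *Sf3b5*, *Hmga2*, *Crabp2*, *Hba-x*, *Irx3*, *Twist1* and *Alx4*.

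**Figure D2:**
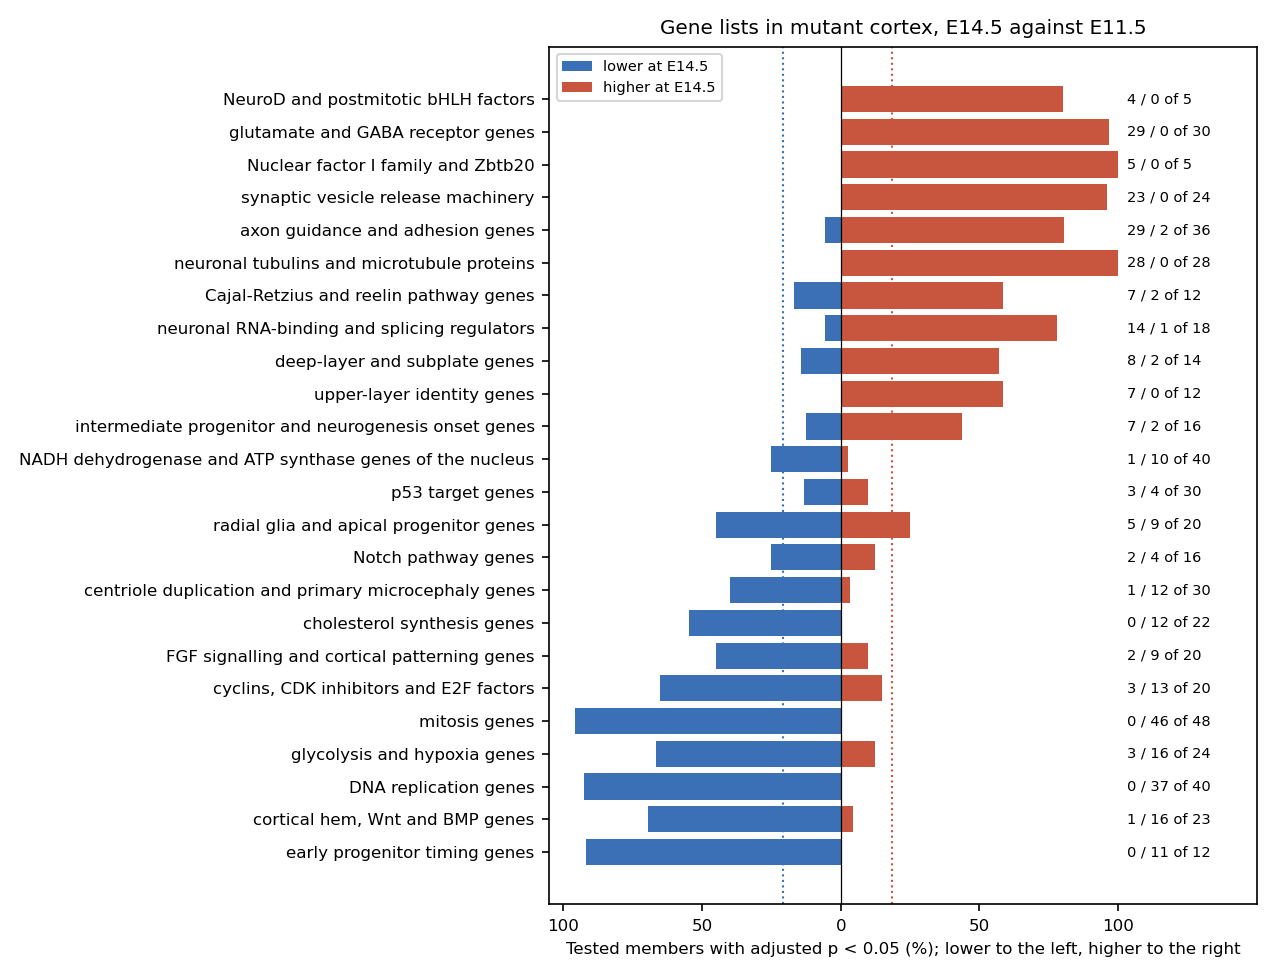
Share of the tested members of 24 gene lists that were called higher (red, to the right) or lower (blue, to the left) at E14.5 in mutant cortices, ordered by the median log2 fold change of the list, with the counts at the right. Dotted lines mark the shares of all genes tested, 18.4% higher and 20.9% lower. Most lists at the top are of neuronal genes, with the nuclear factor I and *Zbtb20* genes among them. At the bottom are the early timing genes, the hem, Wnt and BMP genes, DNA replication, glycolysis and hypoxia, and mitosis.

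Of the mutants, A and C held *Alb* and other liver transcripts, and without both, with only B left at E11.5, many list counts were smaller. B was also the E11.5 library with the highest r to those of E14.5. Its likeness to E14.5, the loss of libraries and the liver transcripts cannot be told apart here. Radial glia genes then had 5 lower in place of 9, hem, Wnt and BMP genes 10 in place of 16, FGF and patterning genes 2 in place of 9, and cholesterol genes 5 in place of 12. Intermediate progenitor genes and upper-layer genes each had 4 higher in place of 7, microglia genes 1 higher in place of 5, and pericyte and meningeal genes 5 lower in place of 8. Of the NADH dehydrogenase and ATP synthase genes none was called. In contrast, early timing genes had 9 of 11 lower, NeuroD factors 4 of 5 higher and the nuclear factor I and *Zbtb20* genes 5 of 5 higher.

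Genes that mark young neural progenitors had the lowest median of the 24 lists. This list holds RNA-binding and chromatin proteins of the Lin28 and Hmga2 pathway, which keeps stem cells in an early state and recedes as development goes on. Of 12 members, 11 fell, 10 of them at least 2-fold, and the median log2 fold change was -1.80. *Hmga2* (ENSMUSG00000056758, chromosome 10 of GRCm38, 120361275 to 120476469, minus strand), a chromatin protein of self-renewing stem cells, had 8732, 6565 and 6525 at E11.5 and 356, 323 and 456 at E14.5. That is a fold change of 19.2 downward (log2 fold change -4.26 ± 0.16, adjusted p = 1.02e-08), and the groups lay far apart. It was the largest decrease of any gene with a mean over 1000 outside the globins. *Igf2bp1*, *Igf2bp2* and *Igf2bp3* encode a family of proteins that bind and stabilise messenger RNA. *Igf2bp1* had 5145, 4455 and 4255 at E11.5 and 1172, 1057 and 1216 at E14.5 (log2 fold change -2.00 ± 0.12, adjusted p = 3.62e-07). *Igf2bp3* had 2371, 2029 and 2112 at E11.5 and 626, 758 and 760.3 at E14.5 (log2 fold change -1.60 ± 0.12, adjusted p = 2.38e-06), and *Igf2bp2* fell least of the family, from 1646, 1971 and 1562 at E11.5 to 938, 797 and 953 at E14.5 (log2 fold change -0.94 ± 0.13, adjusted p = 0.000148). *Lin28b*, which blocks the maturation of let-7 microRNAs, had 182, 229 and 213 at E11.5 and 70.0, 72.9 and 66.6 at E14.5 (log2 fold change -1.56 ± 0.17, adjusted p = 2.56e-05). *Lin28a* was already low at E11.5, at 27.6 ± 8.06 (mean ± SD, n = 3), and had 7.90, 0 and 0.783 at E14.5. *Trim71*, a target of let-7, had 74.2, 48.0 and 75.7 at E11.5 and 3.39, 3.31 and 1.57 at E14.5. The exception was *Hmgn5*, a nucleosome-binding protein, whose groups overlapped. In controls 11 of 12 also fell, with a median of -2.09.

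Red cells changed their globins over the same days. Mouse embryos first make primitive red cells in the yolk sac, with embryonic globins, and then definitive red cells in the fetal liver, with adult-type globins, so blood left in the tissue carries this switch. *Hbb-bh1*, an embryonic beta-like globin, had 5609.5, 3261 and 4118 at E11.5 and 13.5, 22.1 and 23.5 at E14.5 (log2 fold change -7.71 ± 0.23, adjusted p = 1.88e-09), the largest decrease of all genes tested. *Hba-x*, the embryonic alpha-like globin, had 9588, 9069 and 8840.05 at E11.5 and 531, 583 and 539 at E14.5 (log2 fold change -4.05 ± 0.11, adjusted p = 1.13e-09). *Hbb-y* had 33991, 32189 and 25378 at E11.5 and 6765, 6897 and 6761 at E14.5 (log2 fold change -2.15 ± 0.14, adjusted p = 6.31e-07). In the other direction, the adult-type *Hbb-bs* had 525, 410.5 and 231 at E11.5 and 7009.7, 9649 and 7531 at E14.5 (log2 fold change 4.44 ± 0.24, adjusted p = 2.43e-07), and *Hbb-bt* had 2551, 2351 and 2069 at E11.5 and 5015, 6417 and 4788 at E14.5 (log2 fold change 1.21 ± 0.14, adjusted p = 4.05e-05). *Hbb-bs* and *Hbb-bt* are near-identical copies, as are the adult alpha globins, and how their shared reads were split is uncertain. None of the globins given above overlapped between the ages, and the levels of the adult alpha globins are not reported here. Of 11 erythroid and globin genes tested, 3 were higher and 6 lower, against 18.4% and 20.9% of all genes, and 2 did not pass. The ages did not overlap for 8 of the 11, against 50.7% of all genes. The summed level of the erythroid list was 54994 to 72270 at E11.5 and 38704 to 45095 at E14.5.

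Radial glia genes moved in both directions. Of 20 members, 9 fell and 5 rose, and the median was -0.29. *Vim*, the intermediate filament of radial glia, had 6209, 5783 and 5718 at E11.5 and 3062, 3236 and 3614 at E14.5 (log2 fold change -0.84 ± 0.11, adjusted p = 0.000145). *Nes*, or nestin, had 3131, 3441 and 2815 at E11.5 and 1778, 1771 and 2012 at E14.5 (log2 fold change -0.75 ± 0.12, adjusted p = 0.000418), and *Sox9*, a stem cell transcription factor, had 4203, 3466 and 3492 at E11.5 and 2666, 2479 and 2186 at E14.5 (log2 fold change -0.61 ± 0.13, adjusted p = 0.00252). Each of these 3 was lower in every E14.5 library than in any E11.5 library. *Hes1*, the Notch effector that holds progenitors undifferentiated, had 452, 264 and 371 at E11.5 and 122, 179 and 204 at E14.5 (log2 fold change -1.10 ± 0.22, adjusted p = 0.00218). *Emx2*, which patterns the caudal cortex, had 817, 473 and 605 at E11.5 and 335, 286 and 478 at E14.5 (log2 fold change -0.78 ± 0.22, adjusted p = 0.0128), with groups that overlapped, and it missed the threshold without mutant A or without mutant 2 (adjusted p = 0.0649 and 0.0591). *Sox2* and *Pax6*, which define apical progenitors, missed the threshold. *Sox2* had 2336, 2659 and 2179.9 at E11.5 and 1761, 1827 and 2178 at E14.5 (log2 fold change -0.32 ± 0.13, adjusted p = 0.0657) and *Pax6* had 532, 650.3 and 593 at E11.5 and 466, 414 and 637 at E14.5 (log2 fold change -0.25 ± 0.16, adjusted p = 0.257). Both were highest among the E14.5 libraries in mutant 6, and both passed as lower without it (adjusted p = 0.0137 and 0.0247). The 5 that rose were *Fabp7*, *Slc1a3*, *Ptprz1*, *Tnc* and *Aldoc*, which radial glia share with astrocytes. *Aldoc*, the brain form of aldolase, had 40.6, 32.3 and 36.1 at E11.5 and 1142, 903 and 811 at E14.5 (log2 fold change 4.66 ± 0.17, adjusted p = 1.02e-08), and *Slc1a3*, the glial glutamate transporter GLAST, had 364, 282 and 307 at E11.5 and 967, 856 and 864 at E14.5 (log2 fold change 1.50 ± 0.13, adjusted p = 6.58e-06). *Rlbp1*, a retinoid-binding protein also found in glia, had 1.94, 20.1 and 9.37 at E11.5 and 290.2, 239.6 and 196 at E14.5 (log2 fold change 4.80 ± 0.54, adjusted p = 3.50e-05).

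Genes of mitosis fell almost as a block. Of 48 members 46 were lower, none was higher, and the median was -0.72. Only 16 of the 46 reached a 2-fold change. *Cdk1*, the kinase that drives entry into mitosis, had 901, 655 and 752 at E11.5 and 341, 369 and 462 at E14.5 (log2 fold change -0.98 ± 0.16, adjusted p = 0.000454). *Top2a*, the topoisomerase that untangles chromosomes, had 11416, 13437 and 12198 at E11.5 and 8797, 7832 and 8924 at E14.5 (log2 fold change -0.54 ± 0.12, adjusted p = 0.00491). *Kif23*, a kinesin of the midbody where daughter cells separate, fell most, from 644, 555 and 742 at E11.5 to 179.5, 267 and 298 at E14.5 (log2 fold change -1.40 ± 0.19, adjusted p = 0.000127). *Kif22*, a motor that pushes chromosomes outward, had 814, 818 and 707 at E11.5 and 578, 447 and 562 at E14.5 (log2 fold change -0.56 ± 0.14, adjusted p = 0.0061). *Cdc20*, the activator of the anaphase-promoting complex, had 1569, 1506 and 1463 at E11.5 and 646, 803 and 585 at E14.5 (log2 fold change -1.17 ± 0.13, adjusted p = 3.85e-05). All of these had lower values in each E14.5 library than in any E11.5 library. *Mki67*, the usual marker of cycling cells, had 3643, 4146 and 3621 at E11.5 and 2759.6, 2179 and 3479.7 at E14.5 and sat near the threshold (log2 fold change -0.46 ± 0.16, adjusted p = 0.035). It missed the threshold on leaving out A, B, C, 1 or 2, with an adjusted p of up to 0.15 without mutant 2. With only B left at E11.5, 19 of the 48 were called lower and none higher.

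Promoters of mitosis genes carry known short sequences, and the windows of 4 of them are shown because these genes fell together. Cell cycle genes homology regions (CHR, written TTTGAA) are bound by the DREAM and MuvB complexes, and CCAAT boxes by NF-Y. The lines below give the 160 bases before the start of transcription, 5′ to 3′ on the strand of the gene, from RefSeq promoters of GRCm38.p6, with these motifs on either strand in capitals. *Cdk1* is at chr10:69352913-69353072 on the minus strand, *Top2a* at chr11:99024190-99024349 on the minus strand, *Cdc20* at chr4:118437344-118437503 on the minus strand and *Kif22* at chr7:127042421-127042580 on the minus strand.
Cdk1: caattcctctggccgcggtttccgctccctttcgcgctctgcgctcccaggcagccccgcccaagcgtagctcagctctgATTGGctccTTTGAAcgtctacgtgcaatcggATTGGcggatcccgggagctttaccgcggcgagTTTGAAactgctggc
Top2a: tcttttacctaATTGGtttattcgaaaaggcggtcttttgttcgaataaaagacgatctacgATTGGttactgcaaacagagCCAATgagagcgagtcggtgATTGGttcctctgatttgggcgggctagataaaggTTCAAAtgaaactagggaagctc
Cdc20: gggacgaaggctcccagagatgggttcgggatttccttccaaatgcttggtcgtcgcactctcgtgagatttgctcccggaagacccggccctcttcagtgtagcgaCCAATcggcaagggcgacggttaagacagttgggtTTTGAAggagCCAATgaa
Kif22: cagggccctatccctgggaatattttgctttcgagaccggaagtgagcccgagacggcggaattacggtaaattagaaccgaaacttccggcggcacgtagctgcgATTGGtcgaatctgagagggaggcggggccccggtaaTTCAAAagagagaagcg
The CHR began 15 and 71 bases before the start in *Cdk1*, 23 bases in *Top2a*, 18 bases in *Cdc20* and 17 bases in *Kif22*, counting from its most upstream base. Over windows of 300 bases, from 250 before to 50 after the start, TTTGAA on either strand was in 33 of 42 promoters of mitosis genes (78.6%, from 39 genes with a promoter in the table) and CCAAT in 32 of 42 (76.2%). Among 12876 promoters of 9998 tested genes the shares were 11.7% and 37.8%. Promoters of all genes called lower held TTTGAA in 402 of 2769, and those of genes called higher in 255 of 2549. A match to these letters is a description of the sequence and does not show binding.

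DNA replication genes fell with the mitosis genes. Of 40 members 37 were lower, none was higher, and the median was -0.92. *Rrm2*, the inducible subunit of ribonucleotide reductase, which makes DNA precursors, had 742, 745 and 877 at E11.5 and 194, 219.7 and 161 at E14.5 (log2 fold change -2.04 ± 0.15, adjusted p = 1.51e-06). *Pcna*, the sliding clamp of DNA polymerase, had 754, 592 and 867 at E11.5 and 137, 209.8 and 217 at E14.5 (log2 fold change -1.98 ± 0.20, adjusted p = 1.42e-05). *Mcm7*, part of the helicase that opens replication origins, had 5263, 6289.7 and 5463 at E11.5 and 4113, 3823 and 3015 at E14.5 (log2 fold change -0.64 ± 0.14, adjusted p = 0.00314). Its partners *Mcm5* and *Mcm6* had 999, 1056 and 869.7 at E11.5 and 492, 522 and 554 at E14.5 (log2 fold change -0.89 ± 0.12, adjusted p = 0.000151) and 864, 722 and 785 at E11.5 and 296, 347 and 389.9 at E14.5 (log2 fold change -1.20 ± 0.14, adjusted p = 4.41e-05). *Lig1*, which joins the fragments of the lagging strand, had 6974, 7339 and 6292 at E11.5 and 4439, 3382 and 4845 at E14.5 (log2 fold change -0.72 ± 0.14, adjusted p = 0.00208). For each of these the E14.5 libraries lay below the E11.5 libraries. The 3 members not called were *Gins4*, *Prim2* and *Dnmt1*.

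E2F factors bind TTTCGCGC or TTTGGCGC, and both were looked for in the promoters of replication genes. TTTCGCGC on either strand was in 8 of 39 promoters (20.5%) and TTTGGCGC in 6 of 39 (15.4%), against 0.637% and 0.924% of the 12876 promoters of all tested genes. Promoters of all genes called lower held them in 1.05% and 1.30%, and those of genes lower by at least 2-fold in 0.740% and 0.846%. For genes called higher the shares were 0.314% and 0.549%. The 160 bases before the start of *Mcm5* (chr8:75109349-75109508, plus strand) and *Mcm6* (chr1:128359706-128359865, minus strand) are shown as the helicase genes that hold both, with either motif in capitals.
Mcm5: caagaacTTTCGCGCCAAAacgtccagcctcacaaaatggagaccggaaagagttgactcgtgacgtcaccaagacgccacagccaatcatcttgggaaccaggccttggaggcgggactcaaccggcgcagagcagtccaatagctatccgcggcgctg
Mcm6: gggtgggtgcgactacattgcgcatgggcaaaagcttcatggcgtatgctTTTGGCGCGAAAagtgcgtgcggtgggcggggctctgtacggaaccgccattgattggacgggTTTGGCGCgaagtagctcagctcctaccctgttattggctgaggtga
In *Mcm5* TTTCGCGC began 153 bases before the start and overlapped the reverse complement of TTTGGCGC at 149 bases. In *Mcm6* TTTGGCGC began at 110 and 47 bases before the start, and the first of these overlapped the reverse complement of TTTCGCGC.

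Cyclins and their inhibitors moved in both directions. Of 20 members 13 fell and 3 rose. *Ccnd1* (ENSMUSG00000070348, chromosome 7 of GRCm38, 144929931 to 144939925, minus strand), the D-type cyclin of apical progenitors that carries cells through G1, had 7377, 6211 and 4699 at E11.5 and 636, 862 and 924 at E14.5 (log2 fold change -2.91 ± 0.18, adjusted p = 4.25e-07). *Ccnd2*, its relative, whose transcript is prominent in cortical progenitors, had 20422, 24621 and 18959 at E11.5 and 32436, 29413 and 33194 at E14.5 and was called higher (log2 fold change 0.58 ± 0.15, adjusted p = 0.00809). Without mutant C *Ccnd2* missed the threshold (adjusted p = 0.0537), and the count of higher members was 1 in place of 3. *Cdkn1c*, the inhibitor p57, fell from 2820.2, 2403 and 2610.4 at E11.5 to 1224, 1394 and 1406 at E14.5 (log2 fold change -0.96 ± 0.12, adjusted p = 6.25e-05). *Cdkn2c*, the inhibitor p18, had 67.1, 52.4 and 49.0 at E11.5 and 88.1, 103 and 85.3 at E14.5 (log2 fold change 0.71 ± 0.21, adjusted p = 0.0163) and missed the threshold without C or without mutant 2 (adjusted p = 0.0728 and 0.0654).

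**Figure D3:**
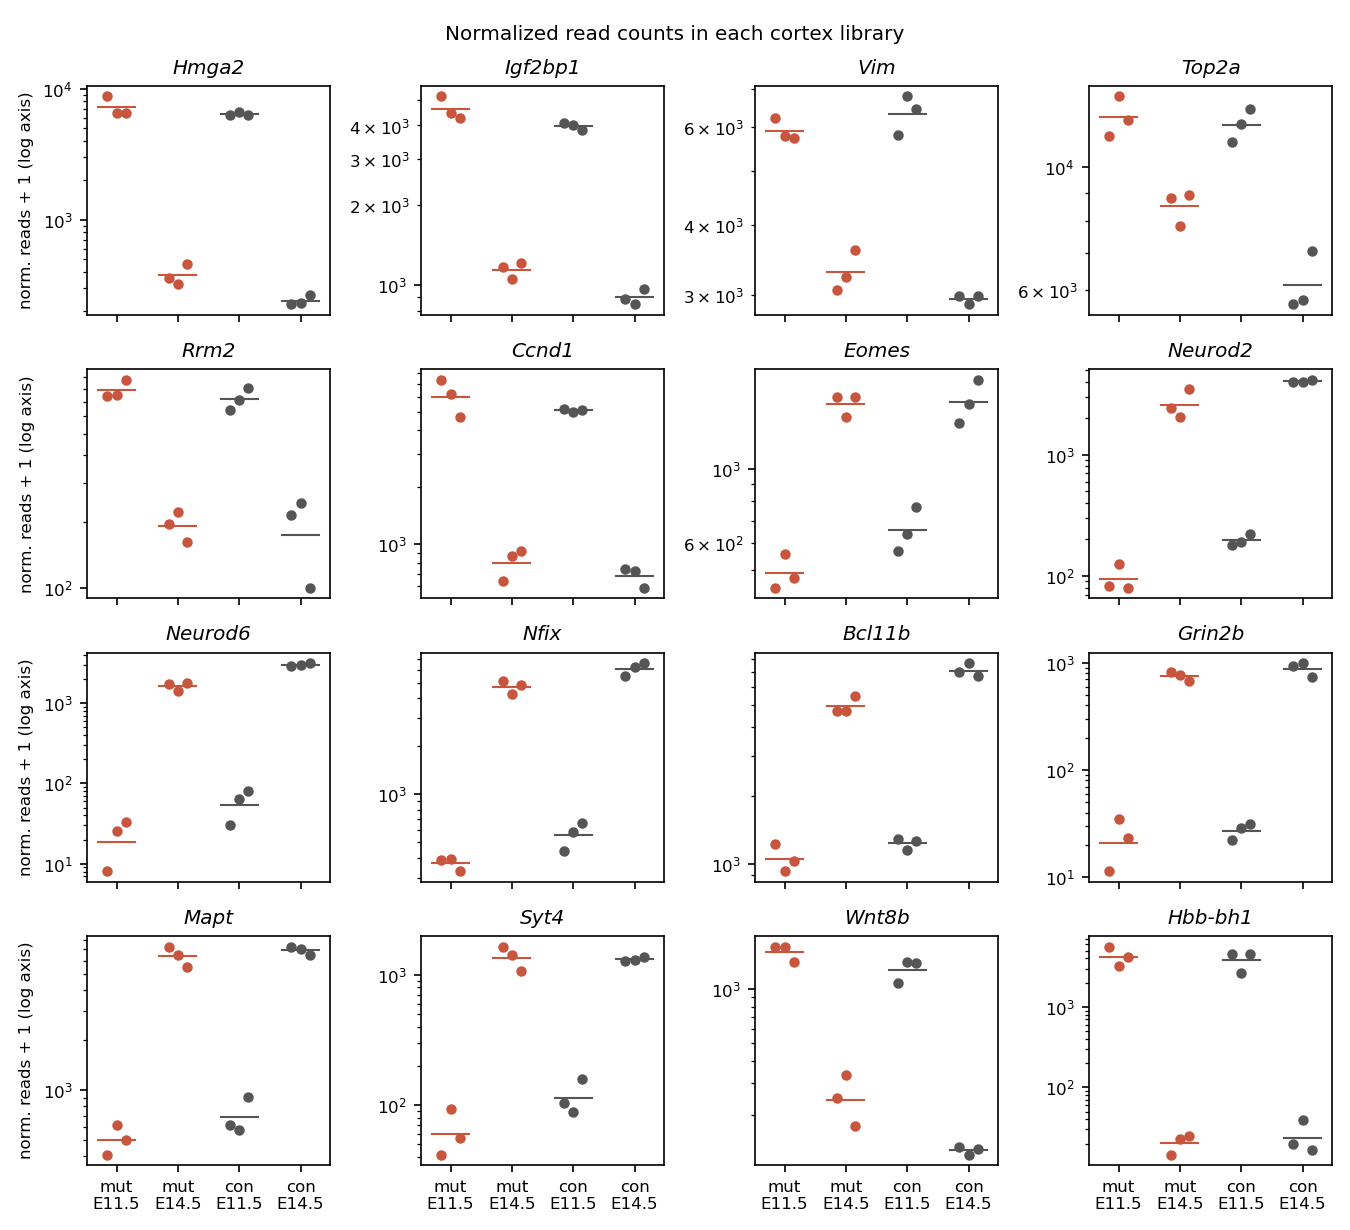
Normalized read counts plus 1 (log axis) of 16 genes in each cortex library, mutants in red and controls in grey; lines mark the mean on the log scale. In each of the 16 genes the E11.5 and E14.5 mutants did not overlap, from *Hmga2* and *Rrm2*, which fell, to *Neurod2* and *Grin2b*, which rose.

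Intermediate progenitor genes were raised in part. Of 16 members 7 rose and 2 fell, with a median of 0.22. *Eomes* (ENSMUSG00000032446, chromosome 9 of GRCm38, 118478212 to 118486132, plus strand), or Tbr2, which defines intermediate progenitors, had 441, 558 and 472 at E11.5 and 1633, 1424 and 1639.6 at E14.5 (log2 fold change 1.68 ± 0.13, adjusted p = 2.12e-06). *Sstr2*, a somatostatin receptor of these cells, had 5.16, 7.81 and 5.77 at E11.5 and 57.6, 57.4 and 65.8 at E14.5 (log2 fold change 3.09 ± 0.33, adjusted p = 2.43e-05). *Tcf4*, a partner of proneural factors, had 4248, 4264 and 3926 at E11.5 and 11777, 11256 and 12753 at E14.5 (log2 fold change 1.52 ± 0.11, adjusted p = 1.92e-06). The groups were clearly apart for all 3. The proneural genes that start neurogenesis went opposite ways. *Neurog2* had 244, 323 and 299.98 at E11.5 and 387, 443 and 427 at E14.5 (log2 fold change 0.54 ± 0.14, adjusted p = 0.0106) and missed the threshold without mutant A (adjusted p = 0.0526). *Neurog1* had 62.6, 40.2 and 46.2 at E11.5 and 12.4, 28.7 and 34.5 at E14.5 (log2 fold change -1.04 ± 0.37, adjusted p = 0.0402) and missed it without A, C or 1 (adjusted p = 0.15, 0.0909 and 0.143). *Dll3*, a Notch ligand of committed cells, fell from 212, 229 and 221 at E11.5 to 86.9, 127 and 109.6 at E14.5 (log2 fold change -1.04 ± 0.17, adjusted p = 0.000569).

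NeuroD factors, which act in neurons after their last division, showed the highest median of the 24 lists, 3.45, and 4 of 5 rose. With no filter on low values, which adds *Bhlhe41*, their median was 2.22 and that of the glutamate and GABA receptor genes, 2.45, was the highest. *Neurod6* had 7.10, 24.5 and 31.7 at E11.5 and 1724, 1393 and 1795 at E14.5 (log2 fold change 6.43 ± 0.39, adjusted p = 4.08e-07), the largest increase of all genes tested. *Neurod2* had 80.6, 125 and 78.6 at E11.5 and 2452, 2050.2 and 3489 at E14.5 (log2 fold change 4.80 ± 0.21, adjusted p = 4.84e-08). Mutant B held the highest *Neurod2* level at E11.5 and mutant 6 the highest at E14.5. *Bhlhe22*, which sets the identity of neocortical areas, had 34.2, 56.9 and 49.8 at E11.5 and 484, 555 and 502 at E14.5 (log2 fold change 3.45 ± 0.19, adjusted p = 2.84e-07), and *Neurod1* had 162, 166 and 189.7 at E11.5 and 344, 286 and 409.5 at E14.5 (log2 fold change 0.99 ± 0.16, adjusted p = 0.000508). *Nhlh2* was the member that did not pass, and *Bhlhe41* was too low to test. The 160 bases before the start of *Neurod2* (chr11:98329646-98329805, minus strand) are shown because it holds the sequence CAGATG, the E-box that NeuroD proteins bind, 118 bases before the start, in capitals.
Neurod2: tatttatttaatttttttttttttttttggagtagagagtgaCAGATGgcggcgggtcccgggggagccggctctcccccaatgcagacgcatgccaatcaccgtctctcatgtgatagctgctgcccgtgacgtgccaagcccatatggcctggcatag
CAGATG on either strand was in 12.2% of the promoters of genes called higher, 10.9% of those called lower and 11.2% of all, so the windows hold it about equally often.

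Transcription factors of neuronal layers rose, with exceptions. Of 14 deep-layer and subplate genes 8 rose and 2 fell (median 0.67), and of 12 upper-layer genes 7 rose and none fell (median 0.53). *Bcl11b* (ENSMUSG00000048251, chromosome 12 of GRCm38, 107910403 to 108003602, minus strand), or Ctip2, which specifies subcerebral projection neurons, had 1226, 932 and 1038 at E11.5 and 4725, 4733 and 5487 at E14.5 (log2 fold change 2.23 ± 0.13, adjusted p = 3.35e-07). *Tbr1*, the factor of corticothalamic neurons, had 334, 290.00 and 330.3 at E11.5 and 711, 726 and 888 at E14.5 (log2 fold change 1.28 ± 0.13, adjusted p = 2.20e-05), and *Sox5*, which times deep-layer fates, had 757, 685 and 688 at E11.5 and 1506, 1419 and 1557 at E14.5 (log2 fold change 1.07 ± 0.11, adjusted p = 2.10e-05). *Bcl11a* had 1522, 1936 and 1621 at E11.5 and 4942, 4126 and 4237 at E14.5 (log2 fold change 1.39 ± 0.13, adjusted p = 8.86e-06). The deep-layer gene that fell at least 2-fold was *Crym*, a thyroid hormone-binding protein, from 295, 148 and 218 at E11.5 to 63.2, 48.6 and 27.4 at E14.5 (log2 fold change -2.25 ± 0.31, adjusted p = 0.000148). The other one that fell, *Foxp2*, was not called without A, C, 1, 2 or 6, when 1 gene was lower. Of the upper-layer genes, *Mef2c* had 299, 267 and 271 at E11.5 and 1371, 1020.1 and 1027 at E14.5 (log2 fold change 2.01 ± 0.14, adjusted p = 1.28e-06) and *Cux2* had 170.3, 138 and 139 at E11.5 and 414, 392 and 330.4 at E14.5 (log2 fold change 1.34 ± 0.15, adjusted p = 4.13e-05). *Pou3f1* had 513, 532 and 460.1 at E11.5 and 718, 779 and 616 at E14.5 (log2 fold change 0.48 ± 0.13, adjusted p = 0.0114) and missed the threshold without C or without mutant 2 (adjusted p = 0.0668 and 0.0536).

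All 5 nuclear factor I and *Zbtb20* genes rose. These factors push radial glia toward late neurogenesis and glial competence. *Nfix* (ENSMUSG00000001911, chromosome 8 of GRCm38, 84699876 to 84800344, minus strand) had 383, 393 and 328 at E11.5 and 5096, 4237 and 4856 at E14.5 (log2 fold change 3.68 ± 0.12, adjusted p = 5.85e-09). *Nfib* had 1296, 1365 and 1284 at E11.5 and 8928, 8132 and 9667 at E14.5 (log2 fold change 2.76 ± 0.11, adjusted p = 3.16e-08). *Nfia* had 1392, 1469 and 1261 at E11.5 and 6499, 5524 and 6646 at E14.5 (log2 fold change 2.18 ± 0.12, adjusted p = 2.67e-07), *Zbtb20* had 693, 834 and 719 at E11.5 and 2293, 2038 and 2716 at E14.5 (log2 fold change 1.64 ± 0.13, adjusted p = 3.31e-06), and *Nfic* rose least, with 312, 316 and 346 at E11.5 and 602, 534 and 460.4 at E14.5 (log2 fold change 0.71 ± 0.14, adjusted p = 0.00162). The 3 libraries of each age were close to each other, and for none of the 5 genes did the ages overlap.

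Structural genes of neurons rose as a group. All 28 tubulins and microtubule proteins rose, with a median of 1.27, and none overlapped between the ages. *Mapt*, or tau, which stabilises axonal microtubules, had 408, 618 and 499 at E11.5 and 7268, 6489.6 and 5516 at E14.5 (log2 fold change 3.67 ± 0.16, adjusted p = 3.87e-08). *Dcx*, or doublecortin, of migrating neurons, had 943, 983 and 966 at E11.5 and 3275, 3589 and 3702 at E14.5 (log2 fold change 1.87 ± 0.11, adjusted p = 3.35e-07). *Tubb3*, the beta-tubulin used to mark neurons, had 3335, 3510.2 and 3263 at E11.5 and 7339, 7335 and 7683 at E14.5 (log2 fold change 1.15 ± 0.11, adjusted p = 1.03e-05). *Stmn1*, a microtubule destabiliser also present in progenitors, varied most at E11.5, with 3441, 11246 and 6732 at E11.5 and 16243, 14265 and 14656 at E14.5 (log2 fold change 1.23 ± 0.31, adjusted p = 0.00757). Against B alone the log2 fold change was 0.42 for *Stmn1* and 0.64 for *Tubb2b*. The count of higher genes in this list was 27 without A, without C or without mutant 1. *Tubb2b* and *Tuba1a*, the tubulins of newborn neurons, had 49207, 50636 and 45218 at E11.5 and 86836, 80232 and 70121 at E14.5 (log2 fold change 0.71 ± 0.16, adjusted p = 0.00431) and 16848, 16067 and 15768 at E11.5 and 27893, 28649 and 29581 at E14.5 (log2 fold change 0.82 ± 0.13, adjusted p = 0.000319). Tubulin genes are near-identical in their coding sequence, and the split of their reads is uncertain.

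Genes of the synapse rose by more. Of 24 genes of vesicle release 23 rose (median 1.97), and of 30 glutamate and GABA receptor genes 29 rose (median 2.51). *Syt4*, a synaptotagmin of vesicles, had 40.6, 91.5 and 54.8 at E11.5 and 1641, 1409 and 1063 at E14.5 (log2 fold change 4.49 ± 0.25, adjusted p = 2.90e-07). *Syt1*, the calcium sensor of release, had 243, 439 and 271 at E11.5 and 1948, 1799.6 and 1223 at E14.5 (log2 fold change 2.40 ± 0.22, adjusted p = 8.91e-06), and *Sv2a*, a vesicle glycoprotein, had 173, 251 and 179 at E11.5 and 1408, 1432 and 1096 at E14.5 (log2 fold change 2.71 ± 0.17, adjusted p = 4.43e-07). Mutant B was the highest of the E11.5 libraries in all 3 genes. *Grin2b* (ENSMUSG00000030209, chromosome 6 of GRCm38, 135713233 to 136173511, minus strand), the NMDA receptor subunit of young neurons, had 10.3, 33.5 and 22.4 at E11.5 and 829, 774 and 680.4 at E14.5 (log2 fold change 5.18 ± 0.32, adjusted p = 4.08e-07). *Gria1* and *Gria2*, AMPA receptor subunits, had 19.4, 35.7 and 31.0 at E11.5 and 567, 478 and 493 at E14.5 (log2 fold change 4.15 ± 0.22, adjusted p = 1.91e-07) and 63.9, 186 and 154 at E11.5 and 1353, 1142 and 1507 at E14.5 (log2 fold change 3.42 ± 0.30, adjusted p = 6.55e-06). *Grm5*, a metabotropic glutamate receptor, went from 3.87, 4.46 and 2.88 at E11.5 to 246, 238 and 175 at E14.5 (log2 fold change 5.54 ± 0.29, adjusted p = 1.91e-07). *Gabbr1*, a subunit of the GABA-B receptor, had 270.3, 469.6 and 349 at E11.5 and 1401, 1169 and 1077 at E14.5 (log2 fold change 1.77 ± 0.18, adjusted p = 2.10e-05). *Camk2b*, the kinase of the postsynaptic density, had 4.52, 16.7 and 7.93 at E11.5 and 285, 276 and 305 at E14.5 (log2 fold change 4.92 ± 0.35, adjusted p = 1.37e-06), and *Hs3st4*, which sulfates heparan chains, had 4.52, 8.92 and 7.21 at E11.5 and 272, 219 and 129.98 at E14.5 (log2 fold change 4.70 ± 0.33, adjusted p = 1.28e-06). The 2 genes of these lists that did not pass were *Vamp1* and *Grik5*.

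Regulators of neuronal RNA and of axon growth followed. Of 18 RNA-binding and splicing genes 14 rose and 1 fell (median 1.10), and of 36 axon guidance and adhesion genes 29 rose and 2 fell (median 1.43). The splicing regulator that fell was *Ptbp1*, which represses neuronal exons in progenitors, from 1104, 914 and 932 at E11.5 to 602, 592 and 605 at E14.5 (log2 fold change -0.71 ± 0.12, adjusted p = 0.00066). *Rbfox1*, a splicing factor of mature neurons, had 33.5, 36.8 and 33.9 at E11.5 and 458, 424 and 464 at E14.5 (log2 fold change 3.65 ± 0.16, adjusted p = 3.87e-08), and *Celf2* had 2579, 3191 and 2525 at E11.5 and 8669.5, 7910.5 and 8303 at E14.5 (log2 fold change 1.59 ± 0.12, adjusted p = 2.53e-06). *Myt1l*, a repressor of non-neuronal genes, had 168, 211 and 202 at E11.5 and 1833, 1566 and 1582 at E14.5 (log2 fold change 3.10 ± 0.13, adjusted p = 3.87e-08). Both opposite moves were larger than the spread between embryos. *Epha5*, an ephrin receptor of axons, had 109.7, 183 and 136 at E11.5 and 1799.8, 1338 and 1675 at E14.5 (log2 fold change 3.50 ± 0.18, adjusted p = 1.91e-07), while the ligand *Efna5* fell from 401, 268 and 345 at E11.5 to 161, 203 and 128 at E14.5 (log2 fold change -1.04 ± 0.20, adjusted p = 0.00138). The other guidance gene that fell was *Slit2*, and without A, B, C, 1 or 6 only 1 gene of the list was lower. *Cntn2*, an adhesion molecule of the first axons, had 226, 613 and 345 at E11.5 and 3276, 2434 and 2463 at E14.5 (log2 fold change 2.89 ± 0.28, adjusted p = 1.11e-05), and *Ncam1* had 1968, 2589.9 and 2253 at E11.5 and 8324, 8181 and 8002 at E14.5 (log2 fold change 1.86 ± 0.12, adjusted p = 8.35e-07).

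Cajal-Retzius cells are early neurons of the surface that secrete reelin. Of 12 genes of these cells and of the reelin pathway 7 rose and 2 fell. *Reln* had 80.0, 100.4 and 85.1 at E11.5 and 501, 491 and 556 at E14.5 (log2 fold change 2.54 ± 0.15, adjusted p = 3.35e-07), and *Car10* had 4.52, 5.58 and 7.93 at E11.5 and 70.0, 90.5 and 40.7 at E14.5 (log2 fold change 3.24 ± 0.39, adjusted p = 5.51e-05). *Ebf2* and *Lhx5*, transcription factors of these cells, fell, with 335, 437 and 347 at E11.5 and 160.3, 152 and 141 at E14.5 (log2 fold change -1.29 ± 0.15, adjusted p = 4.91e-05) and 212, 245 and 229 at E11.5 and 106, 106 and 38.4 at E14.5 (log2 fold change -1.58 ± 0.32, adjusted p = 0.00207). *Trp73*, a further marker of these cells, did not pass. The other genes that rose were *Calb2*, *Cacna2d2*, *Dab1*, *Vldlr* and *Lrp8*, the last 3 of which relay the reelin signal.

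Genes of interneurons and their ventral origin rose. Of 15 members 9 rose and 2 fell, with a median of 0.93, and the summed level was 2791 to 3464 at E11.5 and 5160.2 to 5801 at E14.5. *Sst*, or somatostatin, a peptide of interneurons, had 3.23, 36.8 and 15.9 at E11.5 and 588, 529 and 572 at E14.5 (log2 fold change 5.34 ± 0.56, adjusted p = 2.22e-05), and *Npy*, neuropeptide Y, had 15.5, 21.2 and 10.8 at E11.5 and 172, 205 and 171 at E14.5 (log2 fold change 3.49 ± 0.26, adjusted p = 1.77e-06). *Lhx6*, which marks interneurons from the medial ganglionic eminence, had 36.8, 74.7 and 43.3 at E11.5 and 181, 227 and 216 at E14.5 (log2 fold change 2.05 ± 0.25, adjusted p = 5.87e-05). *Dlx1*, a factor of migrating interneurons, had 341, 519.8 and 357 at E11.5 and 1013, 1069 and 1148 at E14.5 (log2 fold change 1.43 ± 0.16, adjusted p = 3.46e-05), and *Gad2*, which makes GABA, had 130.3, 136 and 139.9 at E11.5 and 447, 444 and 507 at E14.5 (log2 fold change 1.77 ± 0.14, adjusted p = 2.10e-06). In all 5 the E14.5 libraries were above the E11.5 libraries. The 2 members that fell belong to ventral progenitors. *Olig2* had 177, 284 and 182 at E11.5 and 88.1, 134 and 114 at E14.5 (log2 fold change -0.92 ± 0.22, adjusted p = 0.00581), and *Nkx2-1* had 90.3, 68.0 and 44.0 at E11.5 and 24.8, 44.2 and 21.1 at E14.5 (log2 fold change -1.15 ± 0.33, adjusted p = 0.0166), with groups that overlapped. *Nkx2-1* missed the threshold without A, 1 or 6 (adjusted p = 0.0854, 0.0525 and 0.0518).

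Signals of the cortical hem, the Wnt and BMP source at the medial edge of the cortex, fell. Of 23 genes 16 were lower and 1 higher, with a median of -0.96. *Wnt8b* (ENSMUSG00000036961, chromosome 19 of GRCm38, 44493472 to 44514273, plus strand), a ligand of the hem and medial wall, had 1703, 1719.9 and 1423 at E11.5 and 247, 331 and 174 at E14.5 (log2 fold change -2.73 ± 0.20, adjusted p = 1.49e-06). *Rspo1*, which amplifies Wnt signals, had 372, 371 and 310.1 at E11.5 and 90.3, 93.8 and 80.7 at E14.5 (log2 fold change -1.98 ± 0.15, adjusted p = 2.40e-06). *Bmp4* had 179, 224 and 215 at E11.5 and 62.1, 47.5 and 29.0 at E14.5 (log2 fold change -2.19 ± 0.25, adjusted p = 4.41e-05), and *Id3*, a target of BMP signals, had 828, 395 and 769 at E11.5 and 53.1, 104 and 122 at E14.5 (log2 fold change -2.83 ± 0.32, adjusted p = 3.41e-05). Mutant B was lower than A and C for *Id3*, as it was for the mesenchymal genes. *Wnt7a*, a ligand of cortical progenitors, was the gene that rose, with 78.1, 53.5 and 59.9 at E11.5 and 119, 123 and 119 at E14.5 (log2 fold change 0.92 ± 0.20, adjusted p = 0.00288). *Otx2*, a factor of the hem and choroid plexus, fell from 863, 955 and 805 at E11.5 to 271, 396 and 157 at E14.5 (log2 fold change -1.76 ± 0.25, adjusted p = 0.000215), while *Ttr*, the transthyretin that choroid plexus epithelium secretes, had 72.9, 113 and 160.1 at E11.5 and 7339, 5991 and 681 at E14.5 (log2 fold change 4.81 ± 0.67, adjusted p = 0.000163), with mutant 6 far below mutants 1 and 2.

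Of 20 FGF and patterning genes 9 fell and 2 rose. Of 16 Notch genes 4 fell, 2 rose and 10 did not pass, so the share that fell was near that of all genes. *Fgf8*, the ligand of the rostral patterning centre, had 31.6 ± 10.3 at E11.5 (mean ± SD, n = 3) and 0, 0 and 2.35 at E14.5. *Fgf15* had 453, 302 and 319 at E11.5 and 113, 119 and 90.0 at E14.5 (log2 fold change -1.72 ± 0.19, adjusted p = 2.87e-05), and *Dusp6*, a phosphatase induced by FGF signals, had 272, 141 and 213 at E11.5 and 53.1, 56.3 and 66.6 at E14.5 (log2 fold change -1.77 ± 0.23, adjusted p = 0.00011). The count of higher FGF and patterning genes was 0 without C and 1 without B, 1 or 2. In the Notch list *Notch3*, which vessels also express, fell from 361, 320.1 and 332 at E11.5 to 113, 114 and 119 at E14.5 (log2 fold change -1.54 ± 0.14, adjusted p = 7.85e-06). *Dtx1*, an E3 ligase of the pathway, rose, with 25.8, 68.0 and 59.1 at E11.5 and 286, 386 and 211 at E14.5 (log2 fold change 2.58 ± 0.33, adjusted p = 8.19e-05).

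Most glycolysis and hypoxia genes fell. Of 24 genes 16 were lower and 3, *Eno2*, *Hk1* and *Pfkp*, higher, with a median of -0.83. *Pkm*, pyruvate kinase, had 5084, 5588 and 7138 at E11.5 and 1783, 1613 and 1552 at E14.5 (log2 fold change -1.83 ± 0.14, adjusted p = 1.92e-06), and *Ldha*, the lactate dehydrogenase of glycolytic cells, had 2755, 2352 and 2514 at E11.5 and 1130.3, 1078 and 1049 at E14.5 (log2 fold change -1.22 ± 0.11, adjusted p = 8.36e-06). *Slc16a3*, a lactate exporter, had 272, 272 and 263 at E11.5 and 33.9, 55.2 and 39.2 at E14.5 (log2 fold change -2.66 ± 0.20, adjusted p = 1.92e-06). *Eno2*, the neuronal enolase, had 27.7, 50.2 and 33.9 at E11.5 and 183, 179.96 and 102 at E14.5 (log2 fold change 2.02 ± 0.28, adjusted p = 0.000159). All 4 were apart between the ages in every library. Of 22 cholesterol synthesis genes 12 fell and none rose. *Hmgcs1*, an early enzyme of the pathway, had 3767, 3483 and 3653 at E11.5 and 2202, 2481 and 2463 at E14.5 (log2 fold change -0.61 ± 0.11, adjusted p = 0.000998). Of 40 nuclear genes of NADH dehydrogenase and ATP synthase, 10 were lower and 1 higher, none by 2-fold, and the median was -0.16. The lower share is near the 20.9% of all genes, and the higher share is below the 18.4%. Without A, without C or without mutant 1 the count of lower genes was 2, and that of higher genes was 0 without C and 3 without mutant 6.

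Centriole and microcephaly genes fell in part. Of 30 members 12 were lower and 1 higher, with a median of -0.39. *Plk4*, the kinase that starts centriole duplication, had 306, 288 and 331 at E11.5 and 169, 184 and 164 at E14.5 (log2 fold change -0.83 ± 0.14, adjusted p = 0.000593). *Aspm*, a spindle pole protein and microcephaly gene, had 1697, 1560.4 and 1581 at E11.5 and 1014, 915 and 1185 at E14.5 (log2 fold change -0.64 ± 0.12, adjusted p = 0.00156). *Nup37*, a nucleoporin, fell from 110.3, 99.3 and 105 at E11.5 to 29.4, 66.2 and 64.2 at E14.5 (log2 fold change -1.05 ± 0.28, adjusted p = 0.0116). *Cep120*, of the centriole wall, was the gene that was higher, with 274, 312 and 281 at E11.5 and 434, 389.7 and 333 at E14.5 (log2 fold change 0.41 ± 0.14, adjusted p = 0.0384), and it missed the threshold without A, C, 1 or 2 (adjusted p = 0.117, 0.121, 0.157 and 0.0952). The count of lower genes was 7 without mutant 2 and none with only B left at E11.5.

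Targets of p53 did not move together. Of 30 tested, 3 were higher and 4 lower, and the median was -0.19. *Cdkn1a* (ENSMUSG00000023067, chromosome 17 of GRCm38, 29090976 to 29100727, plus strand), or p21, the cell cycle inhibitor induced by p53, had 494, 554 and 466 at E11.5 and 549.9, 634 and 443 at E14.5 (log2 fold change 0.09 ± 0.15, adjusted p = 0.659). Its groups overlapped, and the exact permutation test gave p = 0.7. In controls *Cdkn1a* had 256, 159 and 281 at E11.5 and 358, 345 and 222 at E14.5. *Pmaip1*, the BH3-only protein Noxa, fell from 39.3, 44.6 and 38.2 at E11.5 to 9.03, 8.83 and 3.92 at E14.5 (log2 fold change -2.41 ± 0.39, adjusted p = 0.000516). *Trp53inp1* and *Sesn1* were called higher, with 255, 287 and 226 at E11.5 and 396, 434 and 291 at E14.5 (log2 fold change 0.53 ± 0.17, adjusted p = 0.0259) and 54.8, 53.5 and 39.7 at E11.5 and 94.8, 79.5 and 72.0 at E14.5 (log2 fold change 0.73 ± 0.22, adjusted p = 0.0204). The count of higher targets was 0 without C or without mutant 1 and 1 without A or without mutant 2. *Trp53inp1* missed the threshold without A, C, 1 or 2 (adjusted p = 0.0666, 0.115, 0.0887 and 0.109). *Sesn1* missed it without C or without mutant 1 (adjusted p = 0.0937 and 0.0868).

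Marker genes of cells that enter the cortex from outside changed in part. Of 11 microglia genes 5 were higher, none was lower, and the summed level was 596 to 832 at E11.5 and 1013 to 1265 at E14.5. *Cx3cr1*, the fractalkine receptor, had 234, 207 and 165 at E11.5 and 405, 389.7 and 304 at E14.5 (log2 fold change 0.86 ± 0.17, adjusted p = 0.00189), and *Csf1r*, on whose signal microglia depend, had 96.1, 152 and 93.0 at E11.5 and 192, 211 and 161 at E14.5 (log2 fold change 0.75 ± 0.21, adjusted p = 0.013). *Csf1r* missed the threshold without A, C or 2 (adjusted p = 0.0554, 0.0682 and 0.0552), when 3 microglia genes were higher in place of 5. In controls the sum was 366 to 575 and 548 to 653, and 1 of 11 rose. Of 11 endothelial genes 1 was higher and 4 lower, with a median of -0.35, and their summed level was 1816 to 1957 at E11.5 and 1393 to 1622 at E14.5. Without A and C none of them was lower. The one that rose was *Cldn5*, the tight junction protein of the blood-brain barrier, had 34.2, 51.3 and 41.8 at E11.5 and 115, 124 and 114 at E14.5 (log2 fold change 1.47 ± 0.21, adjusted p = 0.000198), while *Emcn*, a sialomucin of veins and capillaries, fell most, from 99.3, 56.9 and 72.1 at E11.5 to 21.5, 17.7 and 27.4 at E14.5 (log2 fold change -1.72 ± 0.28, adjusted p = 0.000559). *Rgs5*, a pericyte gene, rose, with 61.3, 65.8 and 55.5 at E11.5 and 264, 327 and 203 at E14.5 (log2 fold change 2.08 ± 0.20, adjusted p = 1.02e-05).

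Mesenchymal genes were among the largest decreases. Of 12 pericyte and meningeal genes 8 fell and 3 rose. *Col3a1* and *Col1a2*, collagens of the meninges, had 2587, 1061 and 2013 at E11.5 and 371, 517 and 677 at E14.5 (log2 fold change -1.80 ± 0.28, adjusted p = 0.000414) and 2627, 1153 and 2408 at E11.5 and 504, 681 and 785 at E14.5 (log2 fold change -1.58 ± 0.27, adjusted p = 0.000608). *Six2*, *Alx4* and *Twist1*, transcription factors of cranial mesenchyme, had 545, 132 and 346 at E11.5 and 4.52, 6.62 and 7.83 at E14.5 (log2 fold change -5.35 ± 0.43, adjusted p = 2.94e-06), 203, 148 and 226 at E11.5 and 20.3, 14.4 and 13.3 at E14.5 (log2 fold change -3.51 ± 0.25, adjusted p = 1.34e-06) and 212, 151 and 312 at E11.5 and 7.90, 22.1 and 15.7 at E14.5 (log2 fold change -3.84 ± 0.35, adjusted p = 8.78e-06). *Crabp2*, a retinoic acid-binding protein, had 677, 325 and 588 at E11.5 and 29.4, 32.0 and 26.6 at E14.5 (log2 fold change -4.07 ± 0.25, adjusted p = 4.08e-07). In *Six2*, *Crabp2* and both collagens mutant B was the lowest E11.5 library, as in the summed meningeal level, yet it remained above every E14.5 library. *Irx3*, a patterning factor of the posterior forebrain, had 292, 225 and 325 at E11.5 and 15.8, 24.3 and 14.1 at E14.5 (log2 fold change -3.91 ± 0.24, adjusted p = 4.89e-07). *Dlk1*, an imprinted growth regulator, had 1200.5, 1183 and 1164 at E11.5 and 209, 282 and 204 at E14.5 (log2 fold change -2.36 ± 0.14, adjusted p = 4.08e-07). Outside these themes, *Fndc3c1* fell from 306, 209 and 213 at E11.5 to 7.90, 3.31 and 17.2 at E14.5 (log2 fold change -4.76 ± 0.42, adjusted p = 6.56e-06), and *Sf3b5*, a small subunit of the SF3B splicing complex, from 312, 174 and 246 at E11.5 to 9.03, 4.42 and 31.3 at E14.5 (log2 fold change -4.30 ± 0.50, adjusted p = 4.80e-05).

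The same interval was examined in the controls. There 2492 of 13605 genes were higher at E14.5 (18.3%) and 2561 lower (18.8%). Of 13344 genes tested in both genotypes, 1922 were higher in both, which is 77.2% of the 2491 called in mutants and 78.6% of the 2445 called in controls. Lower in both were 1762, or 62.7% of 2810 in mutants and 69.2% of 2545 in controls. Only 5 genes were called in opposite directions. Among 2199 genes chosen for a 2-fold call in controls, the median size of the log2 fold change was 1.46 in mutants and 1.50 in controls. Among 2292 genes chosen in mutants it was 1.55 in mutants and 1.37 in controls, so each choice favoured the genotype it was made in. Across genes the fold changes had an r of 0.862, given as a description since genes are not independent.

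**Figure D4:**
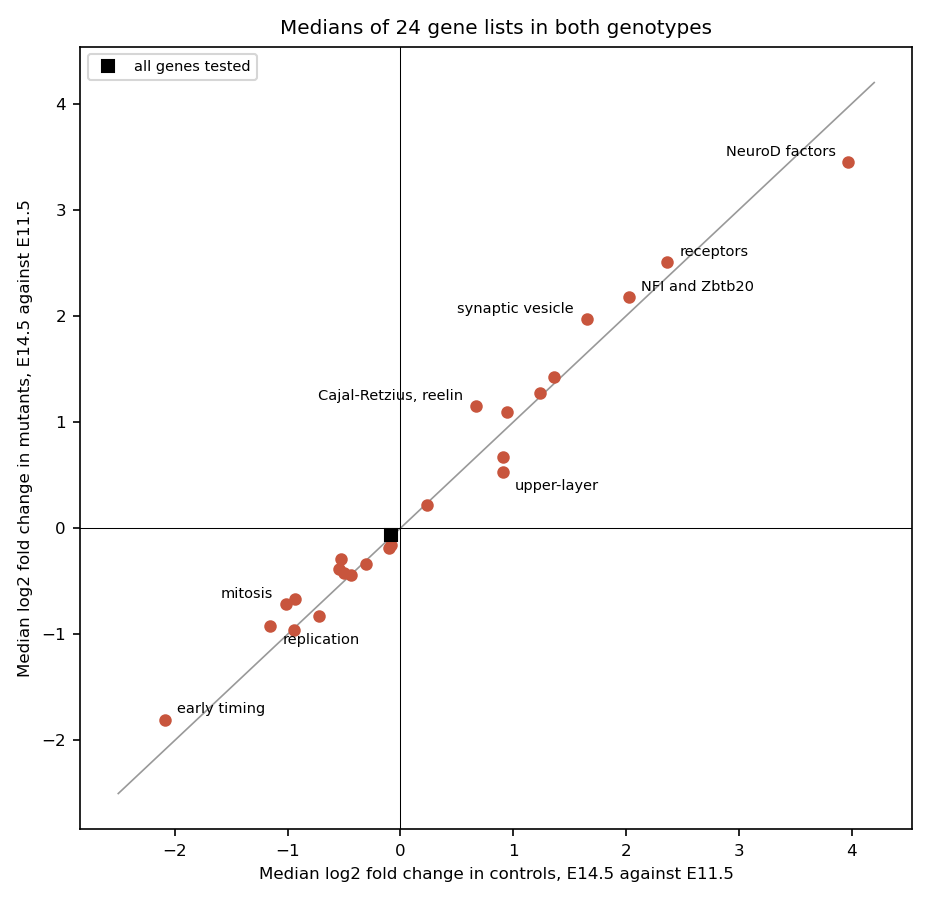
Median log2 fold change, E14.5 against E11.5, of 24 gene lists in controls (x axis) and mutants (y axis), with the median of all genes as a black square and the line of equal values in grey. Lists lie near the line, from the early timing genes (-2.09 in controls, -1.80 in mutants) to the NeuroD factors (3.97 and 3.45).

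Whether the change with age differed between genotypes was tested directly, in the 12 cortices with an interaction term. Of 13650 genes none passed in limma (0%), 1070 had an unadjusted p under 0.05, and the smallest adjusted p was 0.133. With a term for the prefix of the titles, chosen after the data were seen, 0 of 13650 passed in limma, 1216 had an unadjusted p under 0.05, and the smallest adjusted p was 0.151. The 95% interval of the difference, not adjusted for the number of genes, reached a median of 0.607 to either side on the log2 scale. Calls needed an adjusted p, and much larger differences also missed it, such as 2.48 in *Frrs1l* (adjusted p = 0.291 in limma). The test could thus miss differences well above 0.607. For mitosis genes the median change was -0.72 in mutants and -1.02 in controls, and for replication genes -0.92 and -1.16. For early timing genes it was -1.80 and -2.09, and for radial glia genes -0.29 and -0.53. For microglia genes it was 0.75 and 0.18, and for synaptic vesicle genes 1.97 and 1.65. For liver transcripts it was -2.22 and 3.49, and the median difference, mutant minus control, was -5.77. Of 8 liver genes tested for the difference in limma, 7 had an unadjusted p under 0.05 and none passed after adjustment. None of these pairs was tested as a list.

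The genes with the smallest p for the difference are named, and none passed after adjustment. *Mpped1*, a metallophosphoesterase of the brain, had 409, 381 and 342 at E11.5 and 969.9, 802 and 821 at E14.5 in mutants and 333, 349.6 and 382 at E11.5 and 1503, 1896 and 1755 at E14.5 in controls. The difference of the log2 fold changes, mutant minus control, was -1.08 (95% interval -1.45 to -0.70, adjusted p = 0.133). *Gria3*, an AMPA receptor subunit, had 63.9, 75.8 and 56.2 at E11.5 and 221, 162 and 199.7 at E14.5 in mutants and 35.3, 46.8 and 38.1 at E11.5 and 246, 264 and 268 at E14.5 in controls, a difference of -1.11 (95% interval -1.64 to -0.59, adjusted p = 0.466). *Prkce*, protein kinase C epsilon, had a difference of -1.03 (95% interval -1.47 to -0.59, adjusted p = 0.394), and *Ier5*, an immediate early gene, of -0.96 (95% interval -1.41 to -0.52, adjusted p = 0.466). The noncoding *9130024F11Rik* had 10.6 ± 0.797 at E11.5 and 107 ± 30.2 at E14.5 (mean ± SD, n = 3) in mutants and 5.04, 3.35 and 3.11 at E11.5 and 207, 184 and 242 at E14.5 in controls, a difference of -2.29 (95% interval -3.08 to -1.50, adjusted p = 0.133). In these 5 genes the estimated change was larger in controls. In the other direction, *Cacna2d2*, a calcium channel subunit, had 191, 253 and 195 at E11.5 and 779, 625 and 673 at E14.5 in mutants and 229.8, 259 and 309 at E11.5 and 426, 361 and 464 at E14.5 in controls, a difference of 1.05 (95% interval 0.59 to 1.52, adjusted p = 0.399). *Kbtbd11*, a BTB domain protein, had a difference of 0.91 (95% interval 0.51 to 1.30, adjusted p = 0.394).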

How the data were processed

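The authors made libraries from total RNA with oligo(dT) primers and a stranded 3′ kit (QuantSeq), aligned the reads to GRCm38 (TopHat 2.0.10, run with SAMtools 0.1.19 and Bowtie 1.0.0), and counted them per gene with HTSeq 0.6.1 on GENCODE release 20. They deposited 1 table of signal for 24 libraries and 54658 genes, in which each read count is divided by a size factor of its library, with no pooling of replicates. The method of the size factors is not given in the sources used here. In the 6 mutant cortices the values came out as whole reads (tolerance 0.05 of a read). They did so in control D too, but 1 read is worth so nearly 1 there that steps and rounding cannot be told apart. Gene positions are from GENCODE release 21. The depth was 6378724 to 11642271 reads per mutant library, and no column was left out.

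The deposited signal was tested on the scale of log2(value + 1) with limma 3.58.1 (R 4.3.3, intensity trend) for E14.5 against E11.5 over genes whose mean across the 6 mutant cortices was 10 or more, with Benjamini-Hochberg adjustment over all genes tested and a threshold of 0.05. Controls were fitted likewise, and an interaction term over the 12 cortices tested the difference. Single genes were also tested with two-sided exact permutation tests. Lists were described by counts and medians, with no test. Alternatives included other pseudocounts, filters and scalings, edgeR 4.0.16 and DESeq2 1.42.0 on the whole reads of the mutants, terms for sex, for the share of *Gm42418* and for the prefix of the titles, and leaving out each library. Steps were tested on simulated data.

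The libraries, lists and tests were chosen with earlier results of these data known. Genes named are the 10 largest changes in each direction with a mean of at least 100 and no overlap, the 5 smallest p in each direction, genes of each list with the highest mean or largest change, *Cep135*, *Cdkn1a* and the 5 smallest p of the difference in each direction. Other members of the lists were named after their values were seen. A few named by the rule are not reported here.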

Additional observations from a re-analysis of the deposited data

Results flagged for a closer look

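Of the genes named for the smallest p of the difference, 3 went in opposite directions in mutants and controls. In each, all E14.5 mutants lay above all E11.5 mutants, and all E14.5 controls lay below all E11.5 controls. How many genes of the whole table do so was not counted. The difference itself was tested in each and did not pass. *Frrs1l*, which helps assemble AMPA receptors, had normalized read counts of 137, 253 and 148 at E11.5 and 771, 428 and 341 at E14.5 in mutants (log2 fold change 1.48) and 117, 193 and 262 at E11.5 and 107, 76.9 and 88.1 at E14.5 in controls. The difference, mutant minus control, was 2.48 (95% interval 1.52 to 3.45, adjusted p = 0.291). *Miip* had 61.3, 87.0 and 84.4 at E11.5 and 121, 105 and 110.4 at E14.5 in mutants (log2 fold change 0.54) and 109, 124 and 117 at E11.5 and 69.4, 61.7 and 82.8 at E14.5 in controls (log2 fold change -0.71), a difference of 1.25 (95% interval 0.71 to 1.79, adjusted p = 0.394). The call in mutants was lost for *Miip* on leaving out A, C, 1, 2 or 6, with an adjusted p of 0.07 to 0.17. *Rpl3-ps1*, a processed pseudogene that shares reads with *Rpl3*, had 25.2, 22.3 and 18.7 at E11.5 and 55.3, 65.1 and 57.9 at E14.5 in mutants (log2 fold change 1.40) and 18.1, 22.6 and 21.8 at E11.5 and 16.5, 12.3 and 7.85 at E14.5 in controls, where the change did not pass (log2 fold change -0.77, adjusted p = 0.125 in limma), a difference of 2.17 (95% interval 1.29 to 3.04, adjusted p = 0.321). Its reads cannot be separated from those of its parent gene with certainty.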

How the results depend on the processing

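Counts of calls in mutants were 5362 in all, 2513 higher and 2849 lower. A threshold of 0.01 gave 3466 called and 1716 lower, 24 libraries in one fit gave 1784 lower, and a mean of at least 50 gave 1451 calls of at least 2-fold in place of 2353. Leaving out each library in turn gave 3975 to 5523 called, 1932 to 2589 higher, 1955 to 2934 lower and 2056 to 2669 of at least 2-fold. In controls the count of 5053 became 3690.0 to 5440.0. Without A and C, the mutant libraries that held *Alb* (chosen after the data were seen), B stood alone at E11.5 and was assumed to vary like the others. There 1890.0 genes were called, 1271 higher and 619 lower, with 1435 of at least 2-fold, from fewer samples. The higher share of the calls was 46.9%, 54.6% with 24 libraries in one fit and 67.2% without A and C. The difference between genotypes gave 0 calls under every alternative but one, 1 call without control E14.5 replicate 3, so the range over single libraries left out was 0 to 1. Of 157 named genes, 111 kept their direction and side of the threshold under all 23 alternatives. *Cdkn1a*, which was not called, ran from -0.028 to 0.229 as single libraries were left out, changing sign without mutant 2, and was -0.047 without A and C. The median of the liver list was 2.32 without A and C, where only 2 of its genes were tested, against -2.22 with them. It was -0.13 without C and -0.20 with a mean of at least 50. The median of all genes was -0.07 to 0.00 under other scalings and count tests, -0.08 with a mean of at least 50 and 0.03 with no filter. No paired analysis was possible because the 2 ages are different embryos that share fewer than 2 numbers. Genes under about 10 normalized reads were not tested, and changes of low genes are understated by the pseudocount.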
